A study of Mus musculus with 10 samples.

Results

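The proteasome genes of mouse motor cortex were taken from a table of expression values for 35275 genes, of which 22026 are protein coding. A gene was included when it is protein coding and its symbol begins with Psma, Psmb, Psmc, Psmd, Psme, Psmf or Psmg followed by a digit, other than Psmb8 and Psmb9. This gave 48 genes. The rule uses symbols and not expression values, but these genes were chosen with earlier results of these data known. Psmc3ip matches by symbol alone: it encodes a partner of the meiotic recombinase and is not a proteasome gene, so counts are also given without it. Another 3 matching symbols belong to pseudogenes and were not included.

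The tissue came from C57BL/6 mice at postnatal day 22. It covered 5 Astro-mem KO mice (KO), in which membralin, encoded by Tmem259, was conditionally knocked out in astrocytes, and 5 wild-type mice (WT). The driver of the deletion is not given in the sources used here, and the control genotype is given as wild type with no further allele. Libraries hold whole tissue, so other cells keep the gene, and more cells of a type cannot be told apart from more RNA per cell. At issue is how cortical transcripts change once membralin is lost from astrocytes.

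The proteasome is the protease that breaks down proteins tagged with ubiquitin. Its 20S core is a barrel of 2 outer rings of alpha subunits, which form the gate, and 2 inner rings of beta subunits, of which Psmb5, Psmb6 and Psmb7 carry the active sites. The 19S cap binds ubiquitin, removes it and threads the protein into the core with a ring of ATPases. Misfolded proteins of the endoplasmic reticulum are handed to the proteasome by endoplasmic reticulum-associated degradation, a route to which membralin, a membrane protein of that compartment, has been tied. Interferon induces the immune subunits Psmb8, Psmb9 and Psmb10 and the activator made of Psme1 and Psme2, while the transcription factor NRF1 (Nfe2l1) raises the constitutive genes when proteasome activity falls short.

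Promoter windows, 250 bases before to 50 after the annotated start, were taken from RefSeq on GRCm38.p6, and 40 of the 48 genes matched, with 43 windows. The stretches of 4 genes are shown from 250 bases before the start to 20 after it, with motif matches in capitals. Psme1 is an activator gene and had the largest log2 fold change among the genes called. Psmc6 and Psmd6 are called genes of the 19S base and lid, and Psmb6 is a catalytic gene that was not called. The capitals mark the interferon-stimulated response element core in Psme1, the antioxidant response element core and then the ETS core in Psmc6, the ETS core in Psmd6 and the antioxidant response element core in Psmb6. Coordinates are chr14:55578244-55578513 on the plus strand for Psme1, chr14:45329574-45329843 on the plus strand for Psmc6, chr14:14120926-14121195 on the minus strand for Psmd6 and chr11:70525107-70525376 on the plus strand for Psmb6.
Psme1: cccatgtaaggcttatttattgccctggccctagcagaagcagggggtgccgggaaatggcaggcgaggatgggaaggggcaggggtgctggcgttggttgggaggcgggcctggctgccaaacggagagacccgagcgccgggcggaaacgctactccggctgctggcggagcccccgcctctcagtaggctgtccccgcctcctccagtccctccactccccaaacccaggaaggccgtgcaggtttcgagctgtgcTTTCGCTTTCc
Psmc6: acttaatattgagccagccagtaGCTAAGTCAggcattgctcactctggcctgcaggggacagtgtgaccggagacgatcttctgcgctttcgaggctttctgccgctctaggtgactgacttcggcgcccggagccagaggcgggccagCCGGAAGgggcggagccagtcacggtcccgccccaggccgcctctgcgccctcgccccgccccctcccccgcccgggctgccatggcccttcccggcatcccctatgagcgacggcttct
Psmd6: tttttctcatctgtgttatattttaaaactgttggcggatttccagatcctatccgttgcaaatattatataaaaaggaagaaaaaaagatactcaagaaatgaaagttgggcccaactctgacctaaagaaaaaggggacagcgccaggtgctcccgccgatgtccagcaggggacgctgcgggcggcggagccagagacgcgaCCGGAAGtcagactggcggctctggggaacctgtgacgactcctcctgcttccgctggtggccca
Psmb6: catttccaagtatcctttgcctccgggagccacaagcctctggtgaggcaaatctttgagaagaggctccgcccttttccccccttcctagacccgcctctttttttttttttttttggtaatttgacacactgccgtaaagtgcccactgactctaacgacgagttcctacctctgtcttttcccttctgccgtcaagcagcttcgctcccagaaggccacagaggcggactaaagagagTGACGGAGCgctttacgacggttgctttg
The motifs were searched as letters on both strands, with N for any base. The ETS core CCGGAAG was found in 16 of the 43 windows (37.2%), against 8.86% of all 32851 windows, and 15 genes carry it, among them the called genes Psma6, Psmc2, Psmc6, Psmd6 and Psmc3ip. The antioxidant response element core TGACNNNGC, which NRF1 and its relatives bind, was found in 6 windows (14.0%, against 12.4% of all windows). The interferon-stimulated response element core, 2 copies of GAAA with any 2 bases between them, was found in 5 windows (11.6%, against 3.44%), those of Psme1, Psmd4, Psmd9, Psmb3 and Psmg4. The CCAAT box was found in 14 windows (32.6%, against 37.4%), the STAT element TTCNNNGAA in 2 (4.65%, against 8.30%) and the cAMP response element TGACGTCA in none, against 1.79% of all windows. Matches of different motifs may overlap, and a match describes the letters of the window, not a bound site.

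Libraries held between 22968013 and 27567361 fragments in KO and between 22793058 and 28827871 in WT. The 48 genes took 0.245% to 0.271% of the fragments of a KO library and 0.227% to 0.242% of those of a WT library. Tmem259 measured 20.1, 18.5, 16.9 and 26.2 FPKM in KO libraries 1, 2, 4 and 5, with 34.4 FPKM in the library labelled KO3, against 23.8 to 32.4 FPKM in WT (log2 fold change -0.27, SE 0.16, limma adjusted p = 0.275; p = 0.214 by an exact two-sided permutation test). In the library labelled KO3 the targeted gene was highest of the 10 libraries. Other cells of the tissue keep the gene, so this level does not settle whether the label is right, which was not tested. Values with and without that library are given below. As it was singled out in these data, those without it are a description and no test. Excitatory cortical neuron markers (816 to 1033 FPKM summed in KO and 796 to 902 in WT) and astrocyte markers (827 to 1051 in KO and 908 to 1040 in WT) were all above 0 in every library. Y-linked transcripts were present in 2 KO and 2 WT libraries.

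FPKM counts fragments per length of gene and relative to the fragments of the library, so levels can be set beside each other between genes. The proteasome genes ranged widely in level. In WT, 10 genes averaged over 50 FPKM, 24 between 10 and 50, 10 between 1 and 10, and 4 at most 1 FPKM. Psmc1 and Psmc5, 2 of the ATPases, were highest, with 102 ± 4.65 and 96.5 ± 9.18 FPKM in KO and 99.8 ± 5.58 and 94.2 ± 9.55 FPKM in WT (SD, n = 5 each), and the 2 genes do not differ beyond that spread. Psmd2, the scaffold of the 19S base, followed with 87.1 ± 1.69 FPKM in KO and 80.8 ± 3.39 FPKM in WT. Within the 20S core the level ran over a wide span although the subunits assemble in equal number: in WT the alpha genes lay between 19.8 FPKM (Psma3) and 52.4 FPKM (Psma6), and the beta genes between 19.4 FPKM (Psmb3) and 72.6 FPKM (Psmb7). Assembly factors with a Psm symbol averaged at most 9.79 FPKM in KO and 7.73 FPKM in WT (Psmd5). Pomp, the maturation factor of the core, has no such symbol and averaged 75.7 FPKM in KO and 73.7 FPKM in WT. The median coefficient of variation between mice was 7.08% in KO and 6.54% in WT.

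**Figure D1:**
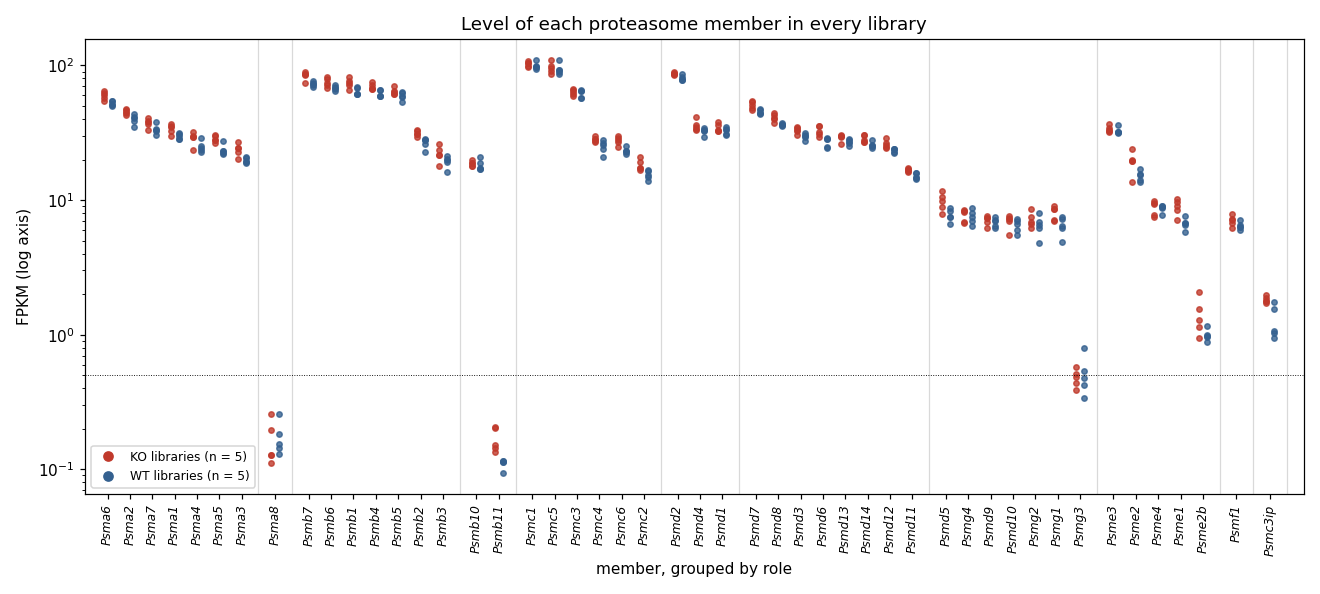
FPKM (log axis) of each of the 48 genes in every library, grouped by role, with KO libraries in red on the left and WT libraries in blue on the right of each gene. The 3 genes Psma8, Psmb11 and Psmg3 lie at or near the dotted line at 0.5 FPKM or under it and were not tested.

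KO was compared with WT by limma on log2(FPKM + 1). The test ran over the 14497 genes whose mean reached 0.5 FPKM, and adjusted p (Benjamini-Hochberg) under 0.05 made a call. Of the 48 genes 45 were tested, and 11 rose in KO: the alpha genes Psma3, Psma5 and Psma6, the beta genes Psmb2 and Psmb7, the ATPases Psmc2 and Psmc6, the lid genes Psmd6 and Psmd8, the activator gene Psme1, and Psmc3ip. None fell. That is 24.4% of those tested, and over all tested genes 9.77% were called higher and 3.51% lower. Without Psmc3ip the count was 10 of 44. The differences were small: the 10 proteasome genes were 12.8% to 33.1% higher in KO by their means, or 0.17 to 0.36 on the log2 scale.

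The 34 genes that were not called had log2 fold changes of 0.00 to 0.31, and all 45 were positive, as were 69.5% of all tested genes. The median over the 45 genes was 0.16, and over all tested genes 0.08. Unadjusted p was under 0.05 for 28 of the 45, against 25.1% of all genes in that direction. In 7 of the 45 genes all KO libraries lay above all WT libraries (Psmb2, Psmb4, Psmc2, Psmd6, Psmd8, Psmd11 and Psmd12), against 5.70% of all tested genes.

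**Figure D2:**
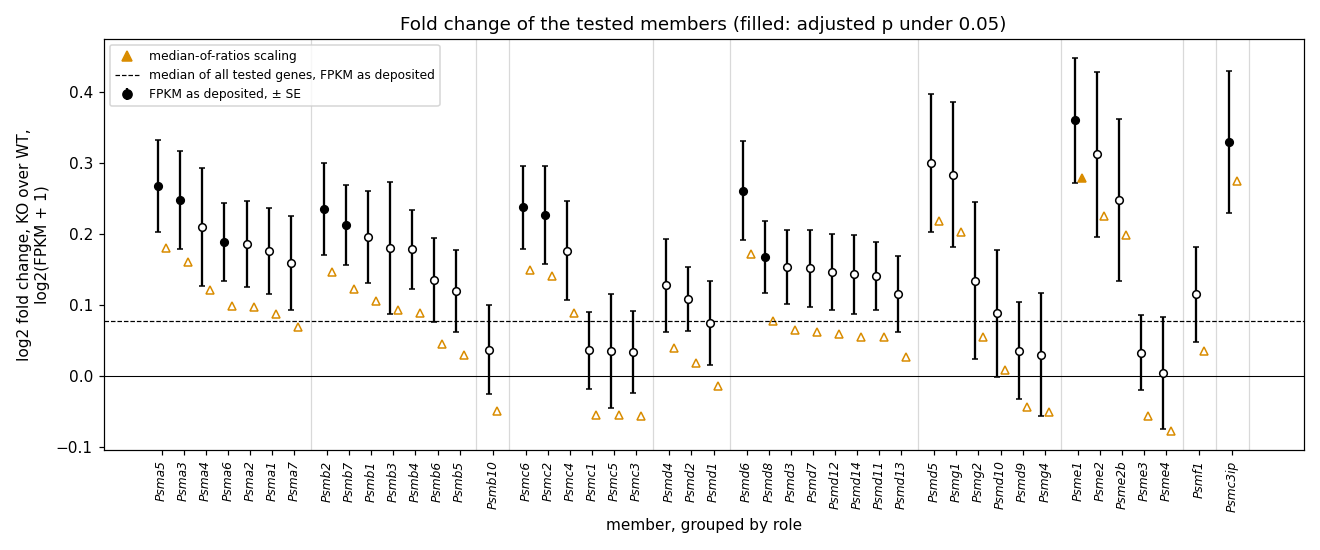
log2 fold change of KO over WT for the 45 tested genes, by role, as FPKM were deposited (circles with SE, filled where adjusted p is under 0.05) and after median-of-ratios scaling (triangles). All circles lie above 0, the 3 ATPases Psmc1, Psmc3 and Psmc5 lie below the dashed median of all genes (0.08), and Psme1 alone is called after the scaling.

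These calls depend on the scale and on single libraries. After median-of-ratios scaling, which brings the median of all genes near 0, Psme1 alone was called (4.31% of all genes higher). Then 36 of 45 genes were positive against 50.9% of all, and the median was 0.07. A correction of each library for gene length left no call by limma, with 4.08% of all genes called higher, and a median of 0.05. Unadjusted limma p was then under 0.05 for 8 of the 45, all higher, against 1941 higher of all 14497. The proteasome genes are short, with a median length of 1515 bases against 3078 over all tested genes. In limma no gene of the 45 was called without KO1, KO2, KO4 or WT1. Unadjusted limma p was under 0.05 for 22 to 27 of them, all higher, against 2802 to 3156 higher of all 14497. Over all 14497 tested genes, calls in either direction numbered 2 without KO2, KO4 or WT1 and 576 without KO1. The loss of calls without KO2, KO4 or WT1 was therefore not particular to the proteasome genes. Calls were also fewer over all genes without KO1, with 393 of all 14497 called higher. Whether the absence of calls among the 45 differs from that share was not tested. Without KO5, 1 of the 45 was called, against 987 over all genes. Without another WT library 2 to 6 were called, all higher, against 847 to 1263 over all genes in either direction. Without the library labelled KO3, 24 were called, when 19.6% of all genes were called higher.

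The library labelled KO3 stood nearer to WT than the other KO libraries. The median over the 45 genes, as log2(FPKM + 1) minus the WT mean, was 0.18, 0.12, 0.21 and 0.24 in KO libraries 1, 2, 4 and 5, with 0.06 in the library labelled KO3, against -0.05, -0.02, 0.03, 0.05 and 0.02 in WT1 to WT5. Over all tested genes the same median was 0.10, 0.07, 0.11 and 0.08 in KO libraries 1, 2, 4 and 5, with 0.02 in the library labelled KO3, against -0.04 to 0.02 in WT. The library labelled KO3 was the lowest KO library for 25 of the 45 genes and lay within the WT range for 31. WT1 was the lowest WT library for 23. Each of the 11 called genes kept its call when the library labelled KO3 was left out, and 13 were added: Psma1, Psma2, Psma4, Psma7, Psmb1, Psmb3, Psmb4, Psmd3, Psmd5, Psmd7, Psmd13, Psme2 and Psmg1. Over all tested genes 19.6% were then called higher. The library was singled out in these data and stands nearest to WT of the KO libraries, so calls without it are a description and no test. Without it the median was 0.19, against 0.09 over all genes. In mice with Y-linked transcripts (2 KO, 2 WT) the median over the 45 genes was 0.19 and 42 were positive, against 0.10 and 69.0% over all genes. In those without (3 KO, 3 WT) it was 0.14 and 43 were positive, against 0.06 and 65.9% over all genes.

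**Figure D3:**
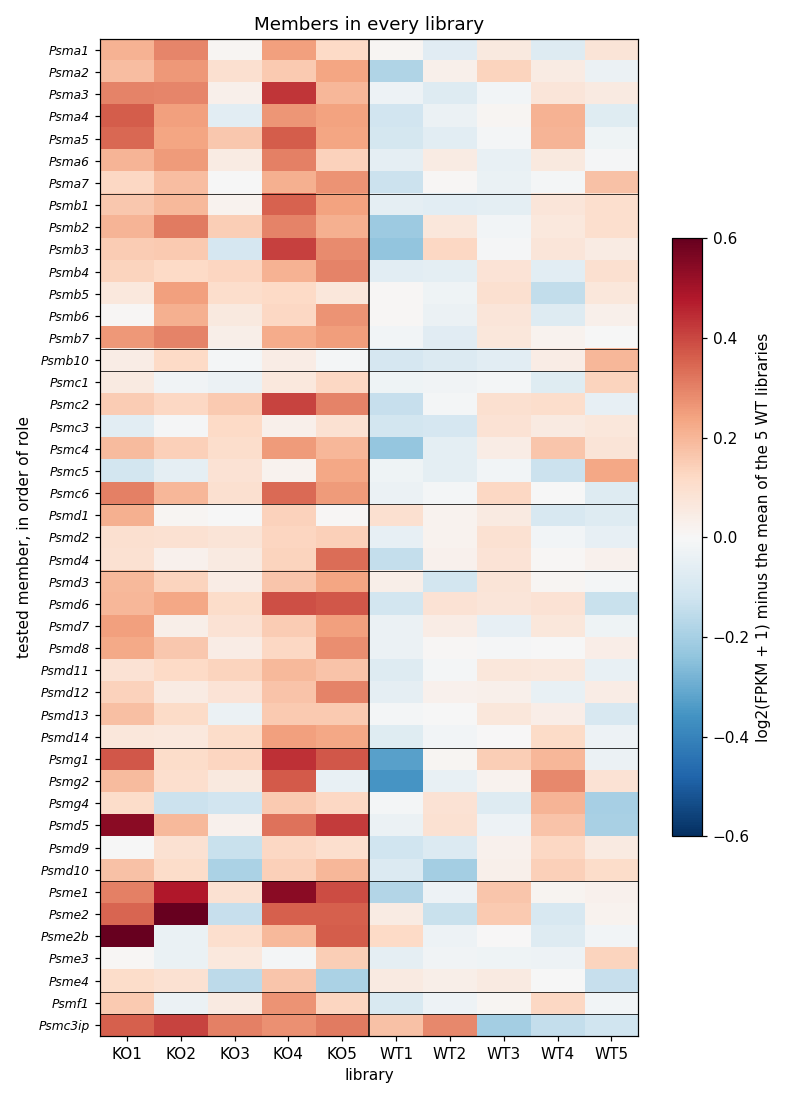
log2(FPKM + 1) of the 45 tested genes minus the WT mean, in every library, with KO libraries on the left and genes in order of role. KO libraries 1, 2, 4 and 5 have medians of 0.12 to 0.24, the library labelled KO3 has 0.06, and WT1, the lowest WT library, has -0.05.

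All 7 genes of the alpha ring had positive log2 fold changes. They summed to 258 ± 16.2 FPKM in KO and 224 ± 8.98 FPKM in WT (SD, n = 5 each), 15.3% higher, and 3 of 7 were called, with a median log2 fold change of 0.19. Psma3 measured 24.5, 24.4, 26.9 and 22.8 FPKM in KO libraries 1, 2, 4 and 5, with 20.2 FPKM in the library labelled KO3, against 19.3, 18.7, 19.5, 20.8 and 20.6 FPKM in WT1 to WT5. The library labelled KO3 lay within the WT range and the other KO libraries above it (log2 fold change 0.25, SE 0.07, limma adjusted p = 0.0375). Psma3 overlaps 3110056K07Rik on the opposite strand, which reached 3.60 FPKM. Psma5 measured 30.2, 27.9, 30.5 and 27.9 FPKM in KO libraries 1, 2, 4 and 5, with 26.4 FPKM in the library labelled KO3, against 21.8, 22.5, 23.3, 27.3 and 23.1 FPKM in WT1 to WT5. Here WT4 was high and overlapped the lowest KO library (0.27, SE 0.07, adjusted p = 0.026). Psma6, the most abundant alpha transcript, measured 60.4, 62.6, 64.8 and 57.7 FPKM in KO libraries 1, 2, 4 and 5, with 54.2 FPKM in the library labelled KO3, against 50.3, 54.1, 50.7, 54.6 and 52.1 FPKM in WT1 to WT5. All KO libraries but the one labelled KO3 lay above WT (0.19, SE 0.06, adjusted p = 0.0437). Psma1, Psma2, Psma4 and Psma7 had log2 fold changes of 0.16 to 0.21 and adjusted p of 0.0611 to 0.12.

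The beta ring summed to 421 ± 21.3 FPKM in KO and 372 ± 12.7 FPKM in WT (SD, n = 5 each), 13.3% higher, with 2 of 7 genes called and a median of 0.18. Of the catalytic genes, Psmb7, with trypsin-like activity, rose. It measured 87.0, 89.4, 84.8 and 86.5 FPKM in KO libraries 1, 2, 4 and 5, with 74.3 FPKM in the library labelled KO3, against 71.8, 69.0, 76.1, 73.5 and 72.5 FPKM in WT1 to WT5 (log2 fold change 0.21, SE 0.06, limma adjusted p = 0.034). Only the library labelled KO3 lay within the WT range. Psmb7 overlaps Nek6 and Gm13586 on the opposite strand, of which the higher reached 7.17 FPKM, and the counting is not stated to use strand.

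Psmb5, with chymotrypsin-like activity, measured 61.6, 70.0, 64.2 and 61.8 FPKM in KO libraries 1, 2, 4 and 5, with 63.6 FPKM in the library labelled KO3, against 59.3, 58.0, 63.1, 53.2 and 61.9 FPKM in WT1 to WT5. The groups overlapped and it was not called (log2 fold change 0.12, 95% interval -0.01 to 0.25, limma adjusted p = 0.168). Psmb6, with caspase-like activity, measured 68.4, 79.2, 74.3 and 82.4 FPKM in KO libraries 1, 2, 4 and 5, with 71.1 FPKM in the library labelled KO3, against 68.4, 66.5, 71.8, 64.5 and 69.6 FPKM in WT1 to WT5. KO1 and the library labelled KO3 lay within the WT range, and it was not called either (0.14, 95% interval 0.01 to 0.26, adjusted p = 0.133). Of the structural genes Psmb2 rose, with 30.8, 33.2, 32.9 and 31.0 FPKM in KO libraries 1, 2, 4 and 5, with 29.5 FPKM in the library labelled KO3, against 22.7, 27.9, 26.3, 27.8 and 28.6 FPKM in WT1 to WT5. Its groups did not overlap, and WT1 was the low library of WT (0.24, SE 0.06, adjusted p = 0.0359). Psmb4 did not overlap between groups either (0.18, adjusted p = 0.052), and Psmb1 and Psmb3 had 0.20 and 0.18 (adjusted p = 0.0632 and 0.2).

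**Figure D4:**
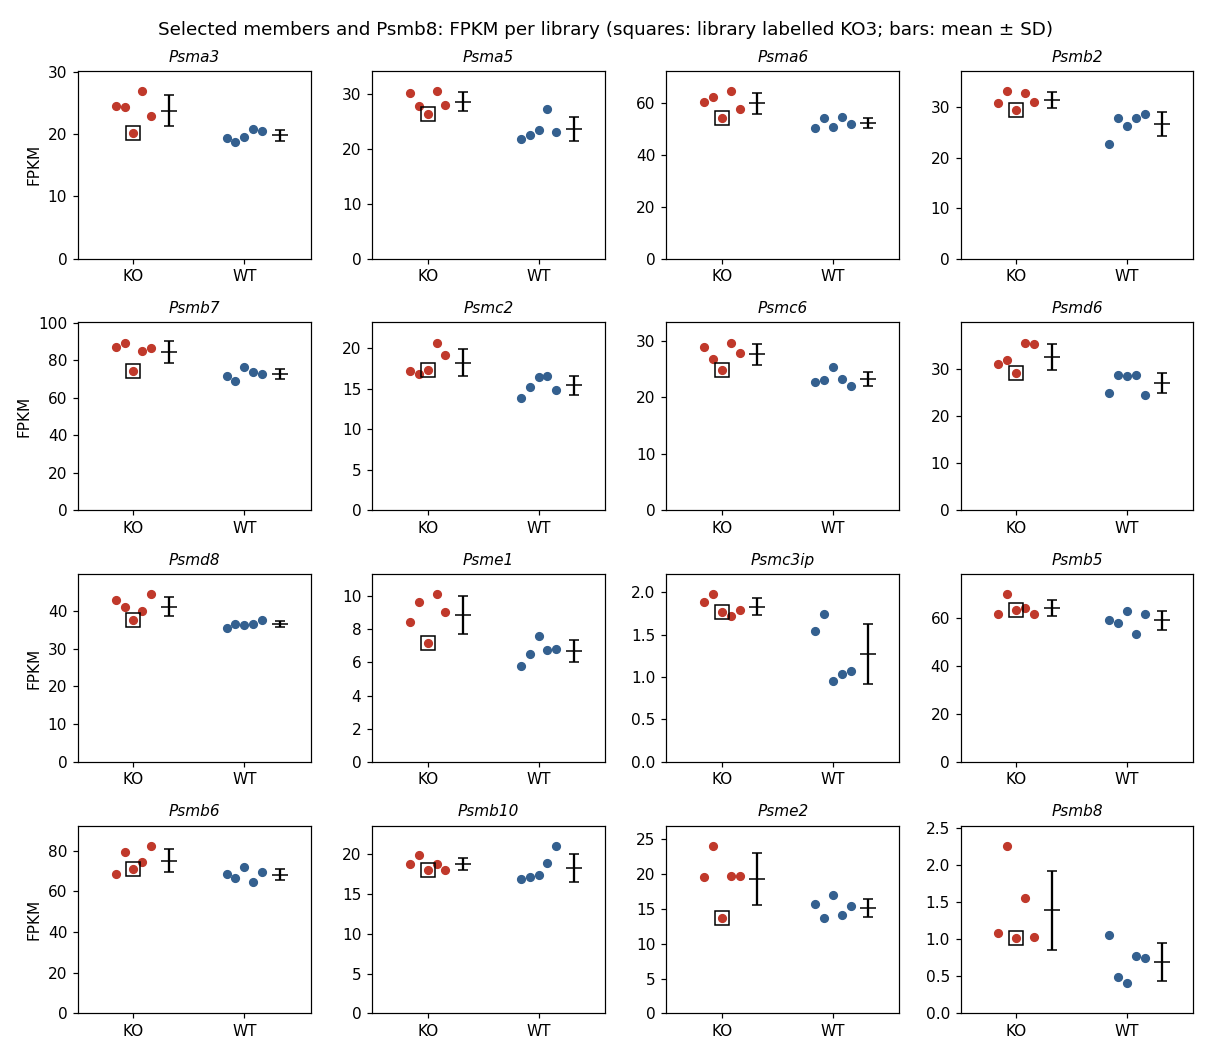
FPKM per library (axes from 0) of the 11 called genes, of Psmb5, Psmb6, Psmb10 and Psme2, and of the immune subunit Psmb8, with KO left and WT right, a square around the library labelled KO3 and bars for mean ± SD (n = 5). Psmb2, Psmc2, Psmd6 and Psmd8 do not overlap between groups, and in Psma3, Psma5, Psma6, Psmb7, Psmc6 and Psme1 the squared point lies within the WT range.

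The 19S cap held a smaller difference by its sum. Its 17 genes summed to 752 ± 31.9 FPKM in KO and 695 ± 18.9 FPKM in WT (8.12% higher, 4 of 17 called), and the 14 constitutive genes of the 20S core to 679 ± 35.7 FPKM in KO and 595 ± 18.6 FPKM in WT (14.0% higher, 5 of 14 called; SD, n = 5 each). The ratio of the 20S sum to the 19S sum was 0.903, 0.971, 0.921 and 0.870 in KO libraries 1, 2, 4 and 5, with 0.853 in the library labelled KO3, against 0.849 to 0.866 in WT. KO libraries 1, 2, 4 and 5 lay above the WT range and that labelled KO3 within it. This ratio was not tested, and it was read from FPKM as deposited, without the correction for gene length. The median log2 fold change of the 20S and 19S genes was 0.19 and 0.14 as deposited. After median-of-ratios scaling it was 0.10 and 0.05. Within the 19S cap the difference was uneven, with sums 5.23% higher in KO for the ATPases, 7.77% for the other base genes and 12.4% for the lid.

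Among the ATPases, the ring that unfolds the substrate, 2 of 6 were called and the median was 0.11. Psmc6 measured 28.8, 26.8, 29.7 and 27.9 FPKM in KO libraries 1, 2, 4 and 5, with 24.9 FPKM in the library labelled KO3, against 22.6, 23.1, 25.4, 23.2 and 22.0 FPKM in WT1 to WT5 (log2 fold change 0.24, SE 0.06, limma adjusted p = 0.0266). Its promoter is the one with an ETS core and an antioxidant response element core printed above. Psmc2 measured 17.2, 16.9, 20.7 and 19.1 FPKM in KO libraries 1, 2, 4 and 5, with 17.3 FPKM in the library labelled KO3, against 13.9, 15.2, 16.5, 16.6 and 14.9 FPKM in WT1 to WT5. KO and WT did not overlap in Psmc2, and in Psmc6 only the library labelled KO3 overlapped WT (Psmc2 0.23, SE 0.07, adjusted p = 0.0482). The 3 most abundant ATPase genes sat apart from these: Psmc1, Psmc3 and Psmc5 had log2 fold changes of 0.04, 0.03 and 0.04, with 95% intervals of -0.08 to 0.15, -0.09 to 0.16 and -0.14 to 0.21 (limma adjusted p = 0.674, 0.722 and 0.793). After median-of-ratios scaling the 3 had negative values, of -0.05 to -0.06. Psmc4 lay between, at 0.18 (adjusted p = 0.105).

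The other genes of the base were not called. Psmd4, which binds ubiquitin chains, measured 34.8, 33.2, 35.8 and 41.4 FPKM in KO libraries 1, 2, 4 and 5, with 33.9 FPKM in the library labelled KO3, against 29.4, 33.2, 34.5, 32.8 and 33.2 FPKM in WT1 to WT5 (log2 fold change 0.13, 95% interval -0.01 to 0.27, limma adjusted p = 0.195). The groups overlapped, and KO5 was the high library. The scaffold genes Psmd1 and Psmd2 had 0.07 and 0.11 (adjusted p = 0.407 and 0.12).

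The lid, which removes ubiquitin from the substrate, summed to 258 ± 13.4 FPKM in KO and 230 ± 5.78 FPKM in WT (SD, n = 5 each), 12.4% higher, with 2 of 8 genes called. Psmd6 measured 31.0, 31.9, 35.6 and 35.2 FPKM in KO libraries 1, 2, 4 and 5, with 29.2 FPKM in the library labelled KO3, against 24.9, 28.7, 28.4, 28.6 and 24.4 FPKM in WT1 to WT5 (log2 fold change 0.26, SE 0.07, limma adjusted p = 0.0343). Psmd8 measured 42.8, 40.9, 39.9 and 44.4 FPKM in KO libraries 1, 2, 4 and 5, with 37.7 FPKM in the library labelled KO3, against 35.5, 36.6, 36.3, 36.4 and 37.5 FPKM in WT1 to WT5 (0.17, SE 0.05, adjusted p = 0.0475). In both genes all KO libraries lay above all WT libraries, the library labelled KO3 by the smallest margin, and Psmd8 had the narrowest WT spread of the 48 genes, a coefficient of variation of 1.94%. Psmd14, the deubiquitinase of the lid, measured 27.0, 26.9, 30.6 and 30.4 FPKM in KO libraries 1, 2, 4 and 5, with 27.9 FPKM in the library labelled KO3, against 24.4, 25.4, 25.8, 27.9 and 25.2 FPKM in WT1 to WT5. It overlapped WT through WT4 and was not called (0.14, 95% interval 0.02 to 0.26, adjusted p = 0.0974). Psmd3, Psmd7, Psmd11, Psmd12 and Psmd13 had 0.12 to 0.15 (adjusted p = 0.0685 to 0.157). Psmd13 overlaps Sirt3 on the opposite strand and Gm15542 on its own strand, of which the higher reached 27.6 FPKM.

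No assembly factor with a Psm symbol was called among 6 tested by limma (unadjusted p under 0.05 for Psmg1 and Psmd5). Psmd5, a chaperone of the 19S base, averaged 9.79 ± 1.46 FPKM in KO and 7.73 ± 0.833 FPKM in WT (SD, n = 5 each; log2 fold change 0.30, SE 0.10, adjusted p = 0.059; with the library labelled KO3 left out, 0.37 and adjusted p = 0.0107). Psmg1, which guides the alpha ring with Psmg2, averaged 8.02 ± 0.935 FPKM in KO and 6.44 ± 1.01 FPKM in WT (0.28, SE 0.10, adjusted p = 0.0801; with that library left out, 0.32 and 0.0444). Psmg2, Psmg4, Psmd9 and Psmd10, the last being gankyrin, had 0.03 to 0.13 (adjusted p = 0.424 to 0.839). Psmg3 was under the level tested, with 0.391 to 0.58 FPKM in KO and 0.34 to 0.797 FPKM in WT.

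The activators, caps that open the core without ATP, had the largest and the smallest log2 fold changes of the 45 genes, on log2(FPKM + 1). By group means Psmc3ip, outside the proteasome, differed most of the 45, 44.0% higher in KO, against 33.1% for Psme1. Psme1, a subunit of the interferon-induced cap, measured 8.46, 9.67, 10.1 and 9.03 FPKM in KO libraries 1, 2, 4 and 5, with 7.17 FPKM in the library labelled KO3, against 5.79, 6.50, 7.60, 6.73 and 6.78 FPKM in WT1 to WT5. The library labelled KO3 lay below WT3, and the other KO libraries above all WT (log2 fold change 0.36, SE 0.09, limma adjusted p = 0.0266; 0.28 and 0.0443 after median-of-ratios scaling; 0.25 and 0.0568 after the length correction). Psme1 overlaps Emc9 on the opposite strand, which reached 14.6 FPKM. Its partner Psme2 measured 19.5, 24.0, 19.7 and 19.6 FPKM in KO libraries 1, 2, 4 and 5, with 13.6 FPKM in the library labelled KO3, against 15.7, 13.7, 17.0, 14.1 and 15.4 FPKM in WT1 to WT5. Lowest of all 10 was the library labelled KO3, and KO2 was highest. Psme2 was not called with all libraries (0.31, SE 0.12, adjusted p = 0.0872) and was called without that library (0.43, adjusted p = 0.00309). Psme2b, a close copy of Psme2 with which it may share reads, averaged 1.40 ± 0.443 FPKM in KO and 0.995 ± 0.104 FPKM in WT (adjusted p = 0.152).

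The other activator genes were close to equal. Psme3, the nuclear cap, averaged 33.6 ± 1.82 FPKM in KO and 32.9 ± 1.82 FPKM in WT (0.03, 95% interval -0.08 to 0.15), and Psme4 8.77 ± 1.10 FPKM in KO and 8.71 ± 0.53 FPKM in WT (0.00, 95% interval -0.17 to 0.18; SD, n = 5 each). Psmf1, which encodes an inhibitor of the core, had 0.12 (95% interval -0.03 to 0.26, adjusted p = 0.251). Psmc3ip, outside the proteasome, measured 1.88, 1.98, 1.72 and 1.79 FPKM in KO libraries 1, 2, 4 and 5, with 1.77 FPKM in the library labelled KO3, against 1.54, 1.75, 0.952, 1.04 and 1.07 FPKM in WT1 to WT5. WT3 to WT5 were low and WT2 overlapped KO (0.33, SE 0.10, adjusted p = 0.0481). Psmc3ip overlaps Mlx, which reached 7.33 FPKM, and only 28 to 68 fragments lay behind each of its values.

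Of the immune subunits among the 48 genes, Psmb10, which can replace Psmb7, measured 18.8, 19.9, 18.8 and 17.998 FPKM in KO libraries 1, 2, 4 and 5, with 18.04 FPKM in the library labelled KO3, against 16.9, 17.1, 17.3, 18.8 and 21.0 FPKM in WT1 to WT5. The KO libraries lay inside the WT range (log2 fold change 0.04, 95% interval -0.10 to 0.17, limma adjusted p = 0.714). Psmb10 made up 18.2% ± 0.861 of the summed FPKM of Psmb10 and Psmb7 in KO and 20.1% ± 1.52 in WT (SD, n = 5 each). Psmb8, which can replace Psmb5 and stands outside the 48 genes, measured 1.08, 2.26, 1.55 and 1.03 FPKM in KO libraries 1, 2, 4 and 5, with 1.02 FPKM in the library labelled KO3, against 1.06, 0.491, 0.414, 0.779 and 0.747 FPKM in WT1 to WT5 (0.48, SE 0.15, adjusted p = 0.0512; leaving out the library labelled KO3, 0.53 and 0.026). Psmb9, which can replace Psmb6, was under the level tested, with 0.629, 0.663, 0.984 and 0.649 FPKM in KO libraries 1, 2, 4 and 5, with 0.359 FPKM in the library labelled KO3, against 0.106 to 0.283 FPKM in WT. The 2 groups did not overlap in Psmb9, whose values rest on 7 to 69 fragments. Psmb8 was 2.09% ± 0.663 of its pair in KO and 1.18% ± 0.446 in WT, and Psmb9 0.867% ± 0.29 of its pair in KO and 0.299% ± 0.124 in WT, so the constitutive transcript made up most of each pair in both groups. The thymus gene Psmb11 (0.136 to 0.205 FPKM in KO and 0.0936 to 0.115 FPKM in WT) and the testis gene Psma8 (0.111 to 0.257 FPKM in KO and 0.13 to 0.256 FPKM in WT) were near 0. In Psmb11, with 11 to 24 fragments behind a value, the groups did not overlap either.

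Genes around the proteasome were read from lists. Of 9 genes of immune peptide supply 7 were tested and 4 rose, with a median log2 fold change of 0.48. Among them were B2m, the light chain of MHC class I (60.9 ± 15.97 FPKM in KO and 31.5 ± 5.33 FPKM in WT; 0.90, limma adjusted p = 0.0186), and Tapbp, which loads peptides (12.1 ± 2.28 FPKM in KO and 7.76 ± 0.78 FPKM in WT; 0.57, adjusted p = 0.0194; SD, n = 5 each). After median-of-ratios scaling 3 of the 7 were called.

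Of 15 tested partners of the proteasome without a Psm symbol none rose and 1 fell. Ubqln4, a shuttle that delivers ubiquitinated proteins, measured 42.4, 41.9, 39.2 and 41.3 FPKM in KO libraries 1, 2, 4 and 5, with 53.3 FPKM in the library labelled KO3, against 57.2, 53.6, 50.8, 53.0 and 58.0 FPKM in WT1 to WT5. Again the library labelled KO3 lay in the WT range, and the other KO libraries lay below it (log2 fold change -0.32, SE 0.08, limma adjusted p = 0.0253; -0.41 and 0.0238 after median-of-ratios scaling). Adrm1, a ubiquitin receptor of the cap, measured 13.0, 13.1, 13.7 and 15.4 FPKM in KO libraries 1, 2, 4 and 5, with 12.9 FPKM in the library labelled KO3, against 10.3, 12.5, 12.1, 12.1 and 11.99 FPKM in WT1 to WT5; its groups did not overlap and it was not called (0.19, adjusted p = 0.0695). Shfm1, the smallest lid subunit, had 0.17 (adjusted p = 0.0677), and Pomp, the maturation factor of the core, 0.05 (95% interval -0.12 to 0.21, adjusted p = 0.698).

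Nfe2l1 itself did not pass the test and lay close to equal. It averaged 86.9 ± 3.09 FPKM in KO and 86.9 ± 3.47 FPKM in WT (SD, n = 5 each; log2 fold change -0.00, 95% interval -0.10 to 0.10, limma adjusted p = 0.999). Of the 9 genes listed for its control, Nfe2l2, its relative in the antioxidant response, rose (5.77 ± 1.24 FPKM in KO and 4.03 ± 0.481 FPKM in WT; 0.41, adjusted p = 0.0437; 0.34 and 0.0795 after median-of-ratios scaling; 0.31 and 0.0963 after the length correction), and so did Bach1, a repressor at the same elements (4.77 ± 0.573 FPKM in KO and 3.56 ± 0.361 FPKM in WT; 0.34, adjusted p = 0.0283). Ngly1, which processes NRF1, had 0.16 (adjusted p = 0.165). Of 5 genes of ubiquitin supply none was called by limma (unadjusted p under 0.05 for 0 of them), and Uba1, the activating enzyme, and Ubb, a polyubiquitin gene, each had 0.13 (adjusted p = 0.17 and 0.197).

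Other groups of genes differed between the same libraries, and their part in the proteasome values was not tested. Reactive astrocyte genes rose (5 of 5 tested). The 6 listed summed to 501 to 804 FPKM in KO libraries 1, 2, 4 and 5, with 127 FPKM in the library labelled KO3, against 96.2 to 135 FPKM in WT. Interferon response genes rose in 7 of 8 cases (27.4 to 81.9 FPKM in KO and 12.9 to 28.5 FPKM in WT). Of 7 microglial genes 2 rose (140 to 193 FPKM in KO and 116 to 144 FPKM in WT), of 6 interneuron genes 4 rose and 1 fell (359 to 529 FPKM in KO and 250 to 332 FPKM in WT), and of 6 striatal genes 2 rose (347 to 446 FPKM in KO and 154 to 465 FPKM in WT). Of 6 genes each, 1 rose among astrocyte and among endothelial genes (endothelial sums of 76.7 to 110 FPKM in KO and 74.4 to 89.0 FPKM in WT), and 2 excitatory neuron genes fell. Of 6 oligodendrocyte genes none was called by limma with all libraries (1263 to 1853 FPKM in KO and 1647 to 2042 FPKM in WT; median log2 fold change -0.29), and 5 were lower in KO without the library labelled KO3 and 4 after median-of-ratios scaling.

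Olfactory bulb markers summed to 24.7, 50.3, 33.3 and 6.42 FPKM in KO libraries 1, 2, 4 and 5, with 33.0 FPKM in the library labelled KO3, against 3.68, 5.19, 24.0, 16.4 and 4.06 FPKM in WT1 to WT5, and none of the 6 was called by limma. The medians of the proteasome genes were 0.18, 0.12, 0.21 and 0.24 in KO libraries 1, 2, 4 and 5, with 0.06 in the library labelled KO3. In WT1 to WT5 they were -0.05, -0.02, 0.03, 0.05 and 0.02. Whether these medians follow the marker sums was not tested. With these markers as a covariate no gene was called by limma over all genes. Unadjusted limma p was under 0.05 for 20 of the 45 proteasome genes, all higher, against 2416 higher of all 14497. The median over the 45 was 0.16, against 0.07 over all tested genes.

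**Figure D5:**
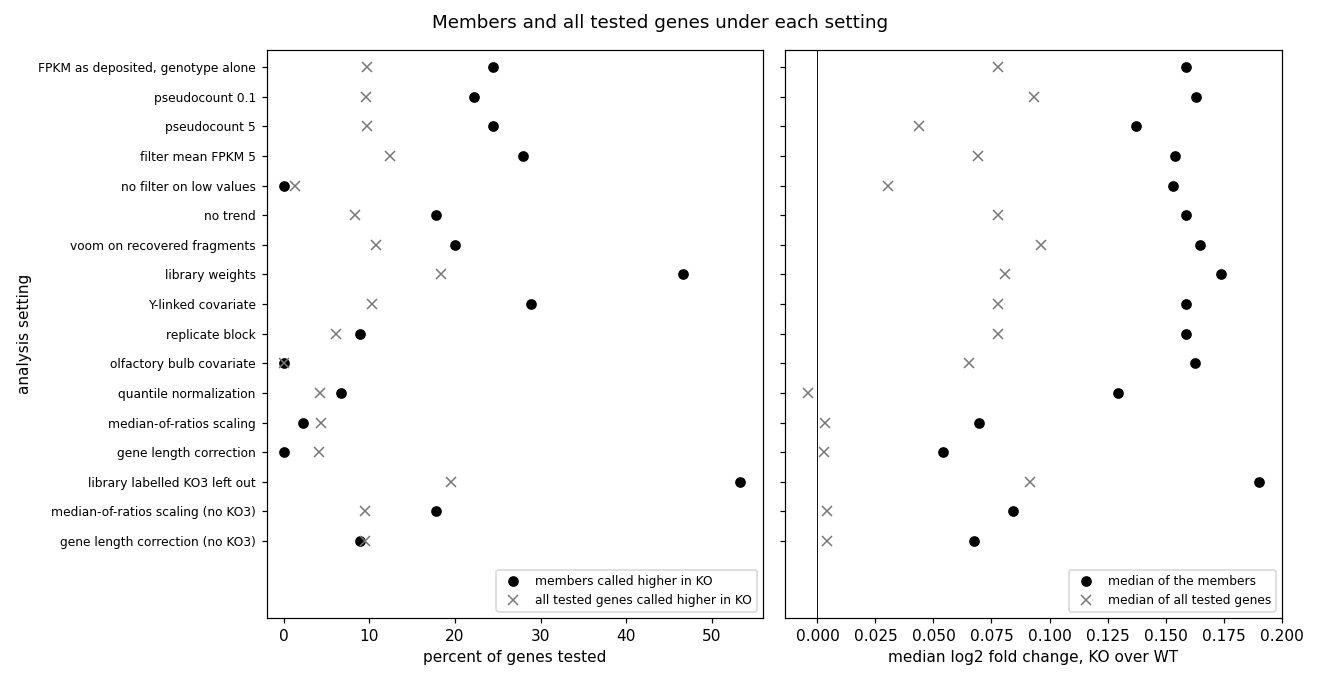
Percent of genes called higher in KO (left) and median log2 fold change of KO over WT (right) for the 45 tested proteasome genes (dots) and for all tested genes (crosses), under the analysis settings drawn. The dots of the right panel lie between 0.05 and 0.19 and above their crosses in every setting drawn, and among the same settings the dots of the left panel lie at or below the crosses for the median-of-ratios scaling, the length correction with and without the library labelled KO3, the fit without a filter and the olfactory bulb covariate.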

How the data were processed

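Motor cortex RNA of 5 KO and 5 WT mice was sequenced after extraction with a Kurabo kit and NEBNext Ultra library construction, per the labels' protocols. The deposited table holds the authors' FPKM for each gene in each library. Coordinates and the length of each gene stand beside them, per the file headers. The submitters' processing notes list mm10 and DESeq2 without a role, and neither aligner nor counter is given in the sources used here. Multiplied by gene length, 100% of 210325 FPKM values above 0 gave whole fragments within 0.02, from which the depth was read. All 45 pairs of libraries differed by more than sampling noise, with a chi-square of at least 7.22 per gene. All 48 genes matched GENCODE M21 coordinates, and 15 overlap a gene on the opposite strand. Whether fragments were counted by strand is not stated.

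Groups and replicate numbers came from the titles, and a replicate is a mouse, per the series' design. The test was limma 3.58.1 (lmFit, then eBayes with a trend) in R 4.3.3 on log2(FPKM + 1), with genotype as its only term. Genes entered at a mean FPKM of 0.5 or more. Tests are two-sided, and p-values were adjusted by Benjamini-Hochberg over 14497 genes. Fold changes on this log2 scale, computed here from the deposited FPKM, understate the change of low genes. Intervals are 95% intervals of that model. Tmem259 was also tested by exact permutation over 252 assignments, where no p can be below 0.00794.

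The members, the lists and the tests were chosen with earlier results of these data known. Every member is named. Values per library are given for called members, the catalytic genes, Psme1, Psme2, Psmd4 and Psmd14. Each other list is given by its counts and up to 3 genes with the lowest p, plus Psmb8, Psmb9, Nfe2l1, Pomp and Adrm1. Psme2b was placed with the activators after the table was read. Paaf1, on the list of partners, was not analysed here. A further 2 listed genes, 1 of ubiquitin supply and 1 of immune peptide supply, are not reported here, and counts leave them out. Alternatives changed the pseudocount, filter, scaling, trend and weights, corrected for gene length, ran voom on recovered fragments, added a replicate block or Y-linked or olfactory bulb covariates, or left libraries out. The length correction without the library labelled KO3 was added after seeing the data. Simulated data were used to test the limma script.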

Additional observations from a re-analysis of the deposited data

Results flagged for a closer look

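Values per library of the genes named were examined for a highest or lowest library far from the other 4 of its group, and 8 of 128 groups of 5 held one. Chance alone gives about 1 in 20 groups. In 3 of the 8 the library was the one labelled KO3: it had 5.52 FPKM of Psmd10, the lowest KO value, 3.78 FPKM of Bach1, the lowest KO value, and 53.3 FPKM of Ubqln4, the highest KO value. WT5 was far above the other WT libraries in Psmc5, with 111 FPKM, and in Psme3, with 36.1 FPKM. WT4 had 27.3 FPKM of Psma5, the highest WT value. WT1 was far below the other WT libraries in Adrm1, with 10.3 FPKM, and in Psmb11, with 0.0936 FPKM, a level at which 11 to 24 fragments lay behind a value. For Psmb11 the other 4 WT libraries lay between 0.114 and 0.115 FPKM.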

How the results depend on the processing

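All values are for KO over WT. Of 45 proteasome genes 11 were called among 1926 over all genes, with a median log2 fold change of 0.16. The pseudocounts 0.1 and 5 gave 10 and 11 of these genes, a filter at 5 FPKM 12, no trend 8, voom 9, the Y-linked covariate 13, and the olfactory bulb covariate without the library labelled KO3 8. Library weights gave 21 (3557 genes in all), and thresholds of adjusted p under 0.1 and unadjusted p under 0.05 gave 23 (3546) and 28 (4758). Without a filter limma called 0 (465 in all). Unadjusted limma p was then under 0.05 for 31 of 48, against 4325 higher of all 25406. With the olfactory bulb covariate limma called 0 (0 in all), with unadjusted 20 of 45 and 2416 higher of all 14497 (3412 in all). After the length correction it called 0 (unadjusted 8 of 45, against 1941 higher of all 14497). Quantile normalization gave 3 (617 higher in all) and median-of-ratios scaling 1 (625 higher in all). Without the library labelled KO3 the median-of-ratios scaling gave 8 (2924) and the length correction 4. The median was 0.0697 after median-of-ratios scaling and 0.0543 after the length correction, and 0.0844 and 0.0676 for these without the library labelled KO3. Calls over all genes split into 625 higher and 901 lower after median-of-ratios scaling, 617 and 790 after quantile normalization and 592 and 701 after the length correction, against 1417 higher and 509 lower as deposited.

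Leaving out 1 library, or the library labelled KO3 and 1 more, gave 0 to 24 called proteasome genes and 2 to 3763 genes over all, with a median of 0.137 to 0.201. Over all genes, in either direction, 2 were called without KO2, KO4 or WT1, 576 without KO1, 987 without KO5, 847 to 1263 without another WT library and 3763 without the library labelled KO3. With that library and 1 more left out the counts were 13 to 22 and 2415 to 3423. Tmem259 ranged over these from -0.537 to -0.171. The library labelled KO3 was singled out by its Tmem259 level, so Tmem259 without it is a description and no test: -0.42 (limma adjusted p = 0.0278; p = 0.0556 by an exact two-sided permutation test), and -0.520 with median-of-ratios scaling and -0.510 with the length correction.

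The replicate numbers were not taken as pairs: same-numbered libraries correlated at 0.138, -0.0428, -0.0574, 0.139 and 0.114 in their deviations, and KO4 and KO5 alone matched their own number best. Y-linked transcripts were present in libraries 4 and 5 of both groups. With a replicate block 4 proteasome genes and 1271 genes over all were called.

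Genes near 0 changed sign. After median-of-ratios scaling the log2 fold changes were -0.0498 for Psmb10, -0.0547 for Psmc1, -0.0566 for Psmc3, -0.0555 for Psmc5, -0.0144 for Psmd1, -0.0512 for Psmg4, -0.0445 for Psmd9, -0.0560 for Psme3, -0.0780 for Psme4 and -0.0440 for Pomp. After quantile normalization they were -0.0210 for Psmb10, -0.0612 for Psmg4, -0.0607 for Psmd9, -0.00605 for Psmd10, -0.00460 for Psme3 and -0.0786 for Psme4. After the length correction they were -0.0777 for Psmb10, -0.0775 for Psmc1, -0.0753 for Psmc3, -0.0796 for Psmc5, -0.0132 for Psmd1, -0.0511 for Psmg4, -0.0605 for Psmd9, -0.0264 for Psmd10, -0.0627 for Psme3, -0.0198 for Psme4 and -0.0481 for Pomp. Without the library labelled KO3, median-of-ratios scaling gave -0.0531 for Psmb10, -0.0526 for Psmc1, -0.0934 for Psmc3, -0.0844 for Psmc5, -0.0112 for Psmd1, -0.0295 for Psmg4, -0.0164 for Psmd9, -0.0790 for Psme3, -0.0524 for Psme4 and -0.0590 for Pomp, and the length correction gave -0.0825 for Psmb10, -0.0768 for Psmc1, -0.113 for Psmc3, -0.110 for Psmc5, -0.00898 for Psmd1, -0.0244 for Psmg4, -0.0340 for Psmd9, -0.0858 for Psme3 and -0.0594 for Pomp. The olfactory bulb covariate gave -0.0105 for Psmg2, -0.0919 for Psme4 and 0.0107 for Nfe2l1, and without the library labelled KO3 -0.00389 for Psmc3, -0.0595 for Psme4 and 0.0135 for Nfe2l1. Library weights gave 0.0209 for Nfe2l1 and voom 0.000485 for Nfe2l1. Over the libraries left out the ranges were -0.0216 to 0.0203 for Nfe2l1, -0.00946 to 0.108 for Pomp, -0.0148 to 0.0580 for Psmc3, -0.0479 to 0.0937 for Psmc5, -0.0154 to 0.0662 for Psme3, -0.0365 to 0.123 for Psme4 and -0.0204 to 0.130 for Psmg4. The cause of these changes was not tested. Depth limits Psma8, Psmb11, Psme2b, Psmg3 and Psmc3ip, whose values rest on 5 to 68 fragments.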
